A study of Mus musculus with 30 samples.

Results

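A set of 43 genes that mark states of macrophages and monocytes was followed across 30 mouse mammary tumors, each measured on 1 microarray. Its members were listed by symbol, each was read from its brightest probe set, and 41 of the 43 were measured among 19505 genes; Cd68 and Spp1 were not analysed here. The members fell into 16 monocyte-derived genes, 13 measured genes of tissue-resident or general macrophages, 4 complement genes, 5 genes of alternative activation and 3 measured genes of lipid-associated macrophages. All tumors grew from E0771 cells, a mouse mammary tumor cell line, placed in the 4th mammary fat pad of female C57BL/6NCrl mice, which were bought at 8 weeks of age and injected 25 weeks after they were assigned to a diet.

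There were 6 tumors in each of 5 groups. CON-LFD mice ate a low-fat diet (10% of energy as fat) throughout and were never obese. The other mice became obese on a high-fat diet (60% of energy as fat) for 15 weeks, after which DIO-HFD mice stayed on it. DIO-VSG mice had a vertical sleeve gastrectomy, a removal of much of the stomach, and then ate the low-fat diet. DIO-CCR mice received 30% fewer calories every day than CON-LFD mice ate, and DIO-ICR mice received 14% fewer on 5 days of the week and 70% fewer on 2 separate days. All mice without the gastrectomy, CON-LFD included, had a sham operation. The model rests on 1 transplanted cell line, and each array held RNA of a whole tumor, so that fewer cells of a type and less RNA per cell cannot be told apart.

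Macrophages in a tumor come from monocytes of the blood, which enter tissue through the chemokine receptor CCR2, and from macrophages that already lived in the tissue. Newly arrived cells carry Ly6C-family proteins, Plac8 and the oxidase chain Cybb, whereas resident cells around vessels carry scavenger and folate receptors such as CD163, LYVE1 and FOLR2. C1q, the first component of the classical complement pathway, is made mainly by macrophages. Interleukin 4 and 13 switch on Arg1, Mrc1, Chil3 and Retnla, the alternative activation genes of the mouse, and macrophages that take up lipid carry Trem2, Apoe and Gpnmb. The transcription factor PU.1, encoded by Spi1, is needed for the whole lineage.

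To show the DNA in front of genes that differed from DIO-HFD, upstream sequence from RefSeq (build GRCm38.p6) is printed 5′ to 3′ on the gene's own strand for 4 of the 9 members that passed a test against DIO-HFD. Capitals mark the PU.1 core, GAGGAA or TTCCTC on the other strand. The stretches lie at chr6:40585806-40586055 on the minus strand (Clec5a), chr1:171018676-171018925 on the plus strand (Fcgr4), chr5:100572254-100572455 on the minus strand (Plac8) and chr7:101857191-101857440 on the minus strand (Folr2), outside the annotated span of each gene.
Clec5a: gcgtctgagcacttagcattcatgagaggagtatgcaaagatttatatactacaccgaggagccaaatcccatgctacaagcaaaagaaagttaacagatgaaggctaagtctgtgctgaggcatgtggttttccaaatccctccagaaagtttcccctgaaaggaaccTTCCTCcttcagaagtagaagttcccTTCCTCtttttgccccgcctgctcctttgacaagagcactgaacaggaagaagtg
Fcgr4: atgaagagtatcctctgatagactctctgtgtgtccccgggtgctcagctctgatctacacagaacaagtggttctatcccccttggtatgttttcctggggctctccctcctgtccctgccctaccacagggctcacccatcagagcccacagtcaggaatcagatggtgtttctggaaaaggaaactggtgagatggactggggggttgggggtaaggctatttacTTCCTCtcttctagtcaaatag
Plac8: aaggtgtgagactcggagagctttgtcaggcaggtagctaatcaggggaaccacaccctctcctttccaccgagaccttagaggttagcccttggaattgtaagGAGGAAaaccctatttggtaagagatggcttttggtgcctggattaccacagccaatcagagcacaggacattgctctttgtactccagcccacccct
Folr2: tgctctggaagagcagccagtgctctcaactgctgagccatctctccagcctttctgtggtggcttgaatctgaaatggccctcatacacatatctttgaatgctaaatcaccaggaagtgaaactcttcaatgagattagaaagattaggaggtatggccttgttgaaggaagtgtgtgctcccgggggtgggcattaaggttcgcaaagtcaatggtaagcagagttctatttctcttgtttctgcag
Clec5a held the core more than once, Fcgr4 and Plac8 held it in the stretch shown, and Folr2 did not hold these letters. Aif1, which also passed against DIO-HFD, had a stretch of 219 bases outside its annotated span that is not shown. That stretch did not hold the core, and the match of Aif1 lay inside the span. Over the 250 bases before the RefSeq start, 28 members had a window, and 17 of them (60.7%) held the core, against 23.3% of all 32851 windows in the table. The interferon-stimulated response element (GAAA, any 2 bases and GAAA, on either strand) was in 3 of the 28 (10.7%) against 2.98% of all windows. The gamma-activated sequence, TTCNNNGAA, which reads the same on both strands, was in 2 (7.14%) against 7.02%. Of the 28 windows, 11 reached into the annotated span of their own gene, and a match of letters is a description, not a binding site.

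Values are log2 levels, on which a difference of 1 is a doubling of signal, and they are comparable between tumors for 1 gene and not between genes. They ran from 1.48 to 18.57 over the table, and the median of an array lay between 6.41 and 6.79. The general macrophage markers Adgre1 (F4/80), Aif1 (IBA1) and Csf1r were above the array medians in all 30 tumors, at 10.35 or more. Of the epithelial markers, Krt8 averaged 8.48 in CON-LFD and 10.85 in DIO-HFD, while Krt18 and Epcam were below the array medians in these groups, at 4.05 to 4.67. Krt8 was the exception in its list: the other 7 of 8 epithelial genes had higher means in CON-LFD. The median difference of the 8 was 0.21. Markers of other tissue stood out in a few tumors: lymph node stroma genes in DIO-VSG 1, DIO-HFD 5 and DIO-VSG 5 (list levels 5.04, 2.55 and 1.30 above the median tumor) and skeletal muscle genes in DIO-VSG 4, CON-LFD 5 and DIO-VSG 3 (5.99, 2.68 and 2.26). The members varied more between tumors of a group than genes did in general, with a median within-group SD of 0.49 against 0.32 for all genes.

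**Figure D1:**
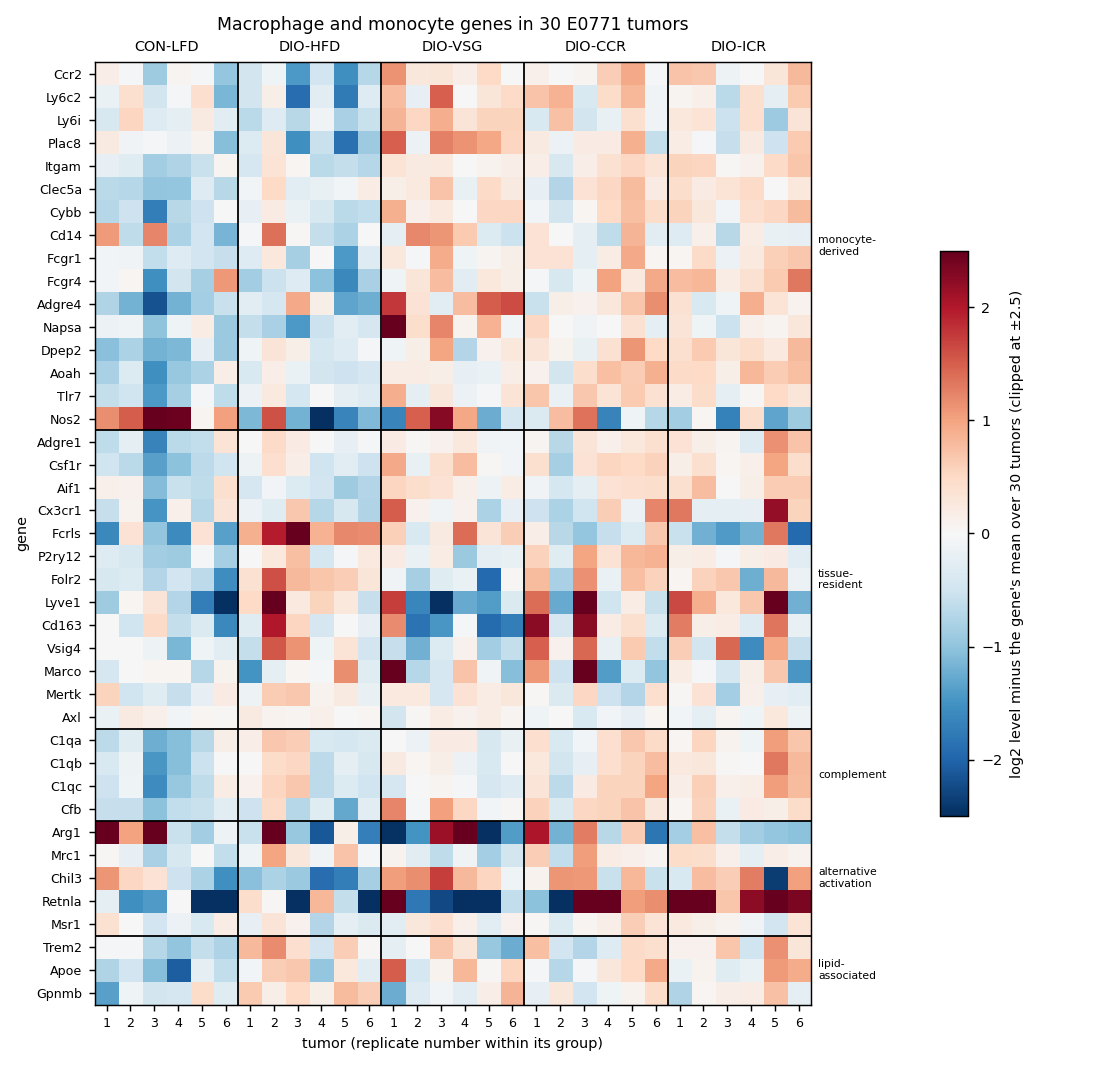
Log2 level of each of 41 members (rows, grouped by class) in each of 30 tumors (columns, 6 per group), as the difference from that gene's mean over all tumors; red is higher, blue is lower, and colors are clipped at 2.5. The monocyte-derived rows are mostly blue in DIO-HFD and red in DIO-VSG, and Fcrls is red in all 6 DIO-HFD tumors.

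In a test over all 5 groups at once, 16 of 41 members differed (limma F-test, adjusted p under 0.05), against 1.64% of all genes. Over the 10 pairwise comparisons, 22 members passed in at least 1, with 31 calls in all. The 4 comparisons with DIO-HFD share the same 6 DIO-HFD tumors and the 3 with CON-LFD share the same 6 CON-LFD tumors, so the comparisons are not independent, and each is given by its own values. Members and classes were chosen with earlier results of these data known. Their shares, signs and medians beside those of all genes are therefore descriptions, not tests of the set.

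The question behind the first comparison was how tumors of obese mice differed from those of never-obese mice. Relative to DIO-HFD, 3 of 41 members were lower in CON-LFD and none was higher, against 0.584% of all genes called lower and 0.995% called in either direction. They were Fcrls and Folr2, both of tissue-resident macrophages, and Clec5a, an activating lectin of monocytes and neutrophils. In all 3 the CON-LFD tumors lay below every DIO-HFD tumor, and no other member kept these groups apart; 1.7% of all genes did so in either direction.

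Fcrls, an Fc receptor-like scavenger protein known from mouse microglia and other tissue macrophages, ran from 6.23 to 8.22 (median 6.69) in CON-LFD and from 8.72 to 10.50 (median 9.04) in DIO-HFD. Its mean was 4.80-fold higher in DIO-HFD (difference CON-LFD minus DIO-HFD -2.26 ± 0.45, SE, n = 6 per group, adjusted p = 0.00984). Leaving out any 1 of the 12 tumors kept this call (highest adjusted p 0.0428). In the other groups Fcrls ran from 7.46 to 9.24 (median 8.31) in DIO-VSG, from 6.88 to 8.53 (median 7.39) in DIO-CCR and from 5.91 to 9.17 (median 6.66) in DIO-ICR. DIO-HFD was therefore the highest group, and the DIO-CCR tumors also all lay below it.

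Folr2, the folate receptor beta of resident macrophages around vessels, ran from 8.85 to 10.05 (median 9.84) in CON-LFD and from 10.70 to 12.01 (median 11.05) in DIO-HFD. The CON-LFD mean was lower by 1.43 ± 0.35 (2.69-fold higher in DIO-HFD, adjusted p = 0.0433). The level was also below every DIO-HFD tumor in DIO-VSG, from 8.45 to 10.43 (median 10.16), but that difference did not pass (-1.29 ± 0.35, adjusted p = 0.155). DIO-CCR (9.58 to 11.55, median 11.07) and DIO-ICR (9.18 to 11.22, median 10.71) overlapped DIO-HFD. The call against CON-LFD was lost with any 1 of the 12 tumors left out (adjusted p up to 0.104).

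Clec5a ran from 8.05 to 8.70 (median 8.32) in CON-LFD and from 8.76 to 9.53 (median 8.96) in DIO-HFD, a difference of -0.75 ± 0.19 (adjusted p = 0.0482). Its levels in the weight loss groups were 8.85 to 9.75 (median 9.26) in DIO-VSG, 8.30 to 9.82 (median 9.32) in DIO-CCR and 9.04 to 9.52 (median 9.33) in DIO-ICR. CON-LFD was thus the group that stood low, and Clec5a passed against it in all 4 comparisons. The call against DIO-HFD held only without CON-LFD 5 when single tumors of these 2 groups were left out (adjusted p up to 0.129 for the others). Neutrophil markers moved the other way: 6 of 15 (S100a8, S100a9, Retnlg, Mmp8, Il1r2 and Lcn2) were higher in CON-LFD, and the neutrophil list level ran from -0.14 to 2.17 in CON-LFD and from -1.15 to 0.11 in DIO-HFD. Their part in the result was not tested.

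Of the 13 tissue-resident or general macrophage genes, Fcrls and Folr2 included, 12 had lower means in CON-LFD and Aif1 had a higher one (0.21). Their median difference was -0.64. Of all genes 42.8% had higher means in CON-LFD, with a median of -0.04. The 13 signs are not independent, since Folr2 and Lyve1 varied together from tumor to tumor. All 3 lipid-associated genes had lower means in CON-LFD, without passing. Trem2, a lipid-sensing receptor, ran from 7.29 to 8.24 (median 7.62) in CON-LFD and from 7.80 to 9.45 (median 8.79) in DIO-HFD, a difference of -0.95 ± 0.32 (adjusted p = 0.158). Apoe, the lipid carrier, ran from 12.63 to 14.45 (median 14.01) against 13.72 to 15.37 (median 14.79), a difference of -0.91 ± 0.34 (adjusted p = 0.23). For Gpnmb, a lysosomal glycoprotein of lipid-laden macrophages, it was -0.84 ± 0.28 (adjusted p = 0.147). The groups overlapped in each of these. Nos2, the inducible nitric oxide synthase, had the largest positive difference among members, 2.60 ± 0.67 (adjusted p = 0.0522), with CON-LFD tumors from 9.19 to 12.50 and DIO-HFD tumors from 6.57 to 10.71.

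**Figure D2:**
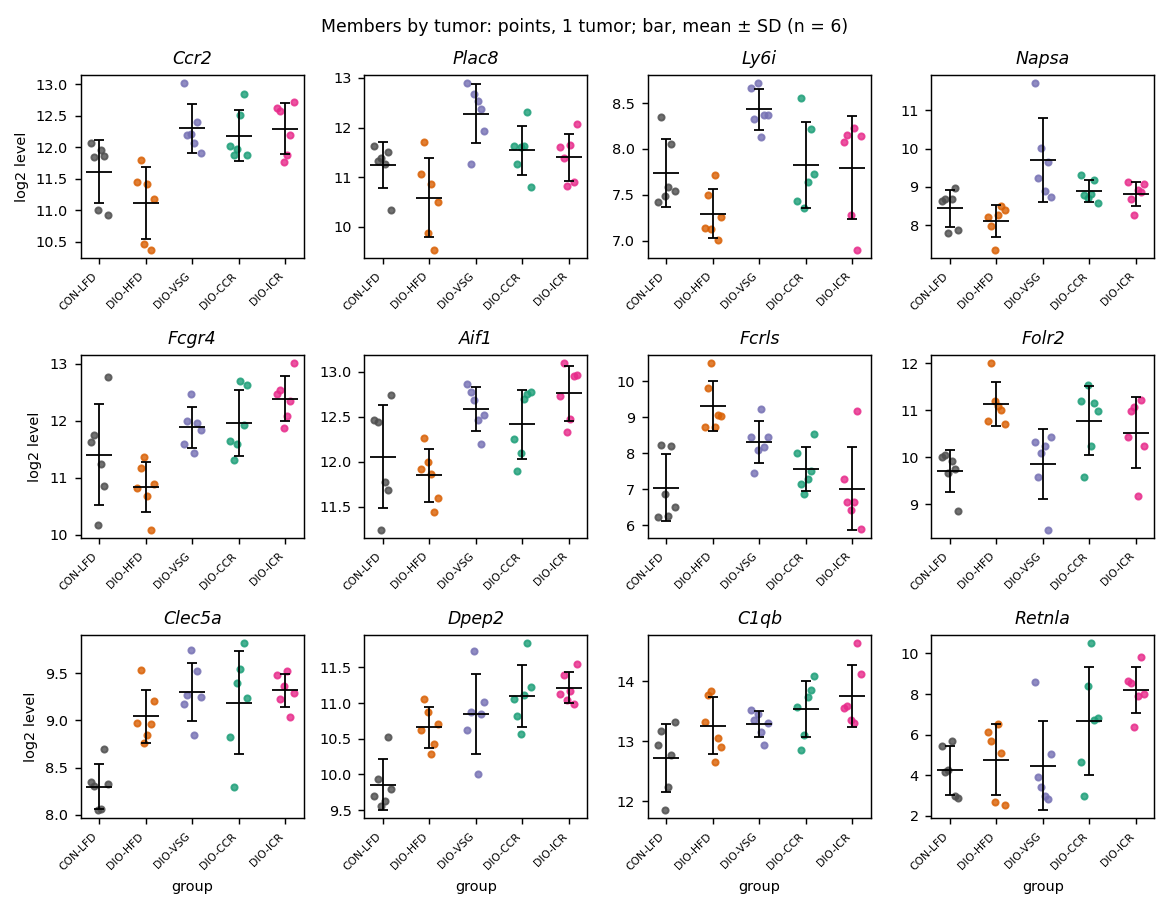
Log2 level of 12 members in each tumor (points), by group, with the group mean and SD (bars, n = 6). DIO-HFD is the lowest group for Ccr2, Plac8, Ly6i and Fcgr4 by its mean and the highest for Fcrls and Folr2, and CON-LFD is the lowest for Clec5a and Dpep2.

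Sleeve gastrectomy was compared with continued obesity next. Relative to DIO-HFD, 4 of 41 members were higher in DIO-VSG and none was lower, against 0.103% of all genes called higher and 0.154% called in either direction. All 4 were monocyte-derived genes: Ccr2, Plac8, Ly6i and Napsa. Every one of the 16 monocyte-derived members had a higher mean in DIO-VSG, with a median difference of 0.87, whereas 40.1% of all genes were higher in sign and their median was -0.05. These are not 16 independent signs, since some of these members varied together from tumor to tumor. Of the 13 tissue-resident members 9 were lower in sign, with a median of -0.07.

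Ccr2, the receptor that lets inflammatory monocytes leave the bone marrow, ran from 11.90 to 13.02 (median 12.20) in DIO-VSG and from 10.37 to 11.80 (median 11.30) in DIO-HFD. Its mean was 2.27-fold higher in DIO-VSG (difference 1.18 ± 0.25, adjusted p = 0.0483), and the groups did not overlap. CON-LFD lay between, from 10.93 to 12.06 (median 11.86). DIO-CCR ran from 11.87 to 12.85 (mean 12.18) and DIO-ICR from 11.77 to 12.71 (median 12.38). The 3 weight loss groups thus occupied nearly the same range, and DIO-HFD was lowest.

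Plac8, a small cysteine-rich protein abundant in classical monocytes, ran from 11.27 to 12.90 (median 12.45) in DIO-VSG and from 9.54 to 11.71 (median 10.68) in DIO-HFD. The difference was 1.69 ± 0.32 (3.22-fold, adjusted p = 0.0291), and only DIO-VSG 2 lay within the DIO-HFD range. CON-LFD (10.34 to 11.63, median 11.36), DIO-CCR (10.81 to 12.31, median 11.61) and DIO-ICR (10.83 to 12.07, median 11.50) lay between these groups by their medians.

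Ly6i, a Ly6C-family surface protein, ran from 8.13 to 8.72 (median 8.37) in DIO-VSG and from 7.01 to 7.72 (median 7.20) in DIO-HFD, with no overlap and a difference of 1.14 ± 0.22 (2.20-fold, adjusted p = 0.0297). It was less uniform elsewhere: 7.42 to 8.35 (median 7.56) in CON-LFD, 7.36 to 8.55 (median 7.69) in DIO-CCR and 6.90 to 8.23 (median 8.11) in DIO-ICR. Ly6c2, the Ly6C protein itself, had a difference of 1.24 ± 0.34 that did not pass (adjusted p = 0.155), with DIO-VSG tumors from 12.63 to 14.33 and DIO-HFD tumors from 10.93 to 12.98. The genes of this family are close copies, and probes may bind more than 1 of them.

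Napsa, an aspartic protease found in monocytes, dendritic cells and B cells, ran from 8.73 to 11.72 (median 9.45) in DIO-VSG and from 7.35 to 8.51 (median 8.22) in DIO-HFD, a difference of 1.60 ± 0.33 (3.03-fold, adjusted p = 0.0349). Its highest tumor was DIO-VSG 1, which also had the highest B cell list level of all tumors, 7.03. CON-LFD (7.78 to 8.97, median 8.66), DIO-CCR (8.57 to 9.32, median 8.79) and DIO-ICR (8.25 to 9.12, median 8.89) lay between. Adgre4, an adhesion receptor of Ly6C-low monocytes, and Fcgr4, an IgG receptor of the same cells, had differences of 1.32 ± 0.37 (adjusted p = 0.165) and 1.05 ± 0.31 (adjusted p = 0.189). For Fcgr4 no DIO-VSG tumor overlapped DIO-HFD. Of all 41 members 6 did not overlap here, against 0.882% of all genes.

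The differences stayed of similar size when any 1 of the 12 tumors was left out, at 1.03 to 1.32 for Ccr2, 1.08 to 1.22 for Ly6i, 1.48 to 1.91 for Plac8 and 1.20 to 1.79 for Napsa, while the adjusted p reached 0.15, 0.0863, 0.0844 and 0.104. The calls were often lost: they were kept in 2 of 12 cases for Ccr2, 4 for Ly6i, 7 for Plac8 and 4 for Napsa. Without DIO-VSG 1, DIO-VSG 5 and DIO-HFD 5, which held lymph node genes, the differences were 0.83 ± 0.27 for Ccr2, 1.30 ± 0.34 for Plac8, 1.04 ± 0.27 for Ly6i and 1.19 ± 0.27 for Napsa, and none passed (adjusted p from 0.172 to 0.474, with fewer tumors). No member passed either without the 3 tumors holding muscle genes (1.26, 1.53, 1.14 and 1.73, adjusted p from 0.0695 to 0.111), or when any 1 of DIO-HFD 3, 5 or 6 or DIO-VSG 3 or 5 was left out. The part of lymph node and muscle tissue in the result was not tested. Neutrophil markers were also higher in DIO-VSG, and their part was not tested either: S100a9 (3.48 ± 0.67, adjusted p = 0.0292) and Retnlg (3.86 ± 0.74, adjusted p = 0.0291) passed among 15, and the list level ran from 0.38 to 1.61 against -1.15 to 0.11 in DIO-HFD.

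**Figure D3:**
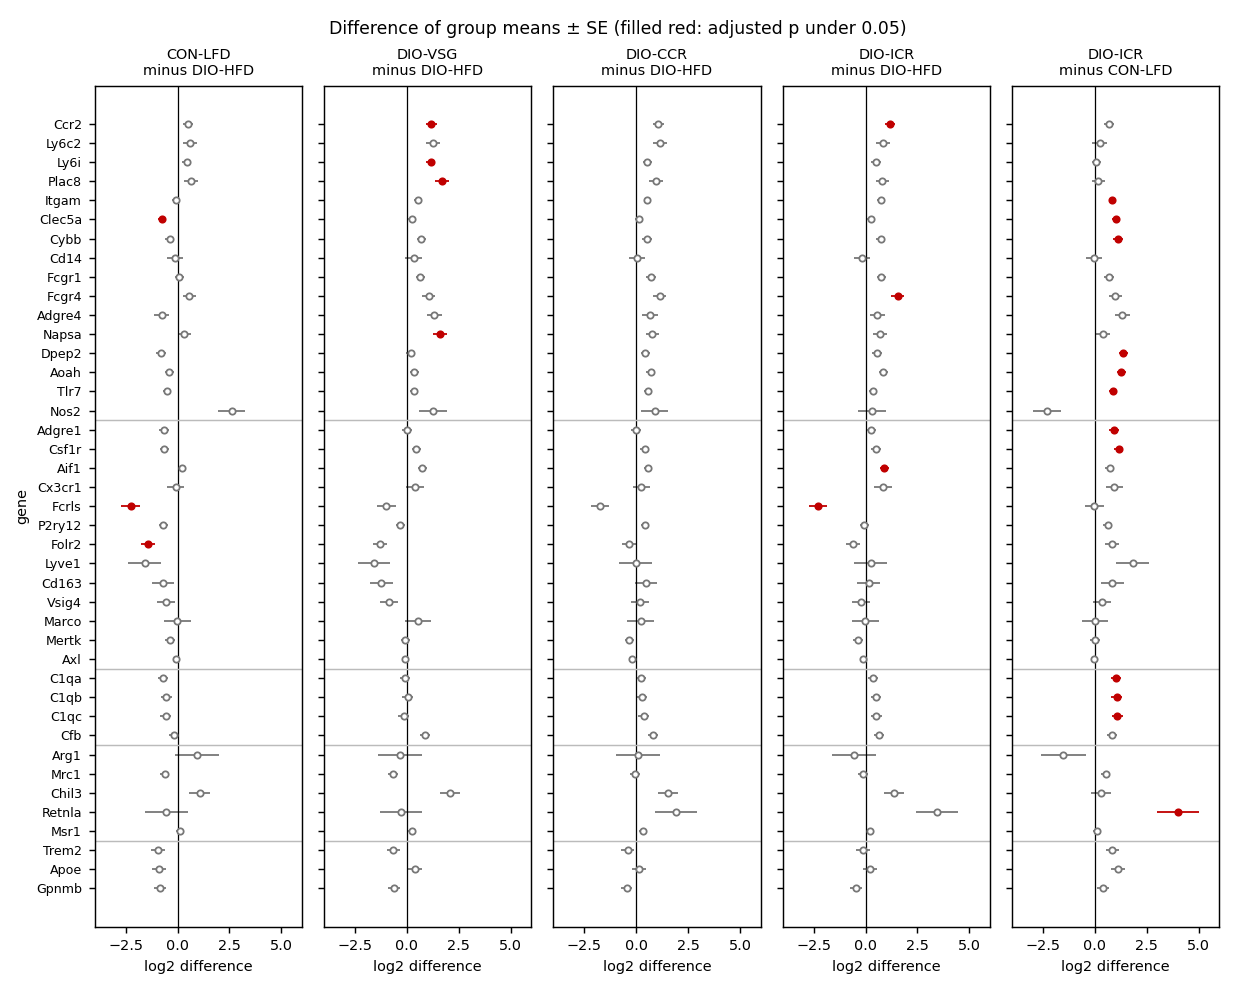
Difference of group means in log2 level (points) with its SE (bars) for 41 members, in the 4 comparisons with DIO-HFD and in DIO-ICR minus CON-LFD; filled red points have an adjusted p under 0.05 and gray lines part the classes. The monocyte-derived genes at the top lie right of 0 in the comparisons of the 3 weight loss groups with DIO-HFD except Cd14 in DIO-ICR (-0.18), and Fcrls lies at -2.26 in CON-LFD and -2.29 in DIO-ICR.

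Calorie restriction was compared with continued obesity in both forms. In DIO-CCR no member passed, against 0.354% of all genes (limma; 15 of 41 members had an unadjusted p under 0.05, against 12.1% of all genes). The 16 monocyte-derived members all had higher means than in DIO-HFD, with a median difference of 0.68, where 46.4% of all genes were higher in sign. Ccr2 came closest, at 1.07 ± 0.25 (2.10-fold, adjusted p = 0.0582), and its DIO-CCR tumors lay above all DIO-HFD tumors. Fcrls was next, at -1.75 ± 0.45 (adjusted p = 0.0805). In all, 4 members did not overlap between these groups (Ccr2, Napsa, Fcrls and Chil3), against 1.16% of all genes. Ccr2 passed with arrays weighted by quality (1.03, adjusted p = 0.0428) and with the dimmest genes left out (1.07, adjusted p = 0.0423).

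In DIO-ICR, 4 of 41 members passed, against 0.461% of all genes. Ccr2, Fcgr4 and Aif1 were higher (0.292% of all genes were called higher) and Fcrls was lower (0.169%). Fcgr4 and Aif1 did not overlap between the groups, as was so for 1.03% of all genes. Ccr2 had a difference of 1.18 ± 0.25 (2.26-fold, adjusted p = 0.0301), and only DIO-ICR 3 fell within the DIO-HFD range. Fcgr4 ran from 11.87 to 13.01 (median 12.41) in DIO-ICR and from 10.08 to 11.36 (median 10.86) in DIO-HFD, with no overlap and a difference of 1.55 ± 0.31 (2.94-fold, adjusted p = 0.0234). It ran from 10.16 to 12.77 (median 11.43) in CON-LFD, from 11.43 to 12.46 (median 11.89) in DIO-VSG and from 11.30 to 12.70 (median 11.79) in DIO-CCR. CON-LFD was the widest group for this receptor.

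Aif1, an actin-binding protein of macrophages, ran from 12.33 to 13.10 (median 12.85) in DIO-ICR and from 11.44 to 12.27 (median 11.89) in DIO-HFD, again with no overlap (0.91 ± 0.21, 1.88-fold, adjusted p = 0.0442). The ranges were 11.24 to 12.74 (median 12.11) in CON-LFD, 12.20 to 12.87 (median 12.61) in DIO-VSG and 11.90 to 12.78 (median 12.47) in DIO-CCR. The general macrophage markers Csf1r (0.50 ± 0.23, adjusted p = 0.436) and Adgre1 (0.28 ± 0.24, adjusted p = 0.76) had higher means in DIO-ICR too, without passing. Fcrls was lower in DIO-ICR by 2.29 ± 0.45 (4.89-fold higher in DIO-HFD, adjusted p = 0.0234), and DIO-ICR 5, at 9.17, was the only tumor of its group within the DIO-HFD range.

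Of the monocyte-derived members 15 of 16 were higher in sign in DIO-ICR, with a median of 0.72, and the exception was Cd14, the lipopolysaccharide co-receptor (-0.18 ± 0.39, adjusted p = 0.937). Of all genes 44.2% were higher in sign. No member passed when DIO-ICR 2 or DIO-ICR 6 was left out. Of the 12 tumors of both groups, 9 could each be left out with the call for Fcrls kept, 7 with that for Fcgr4, 5 with that for Ccr2 and 2 with that for Aif1 (adjusted p up to 0.125). Adipocyte markers moved with this comparison: all 11 measured had higher means in DIO-ICR, Retn and Pparg passed (5.18 ± 1.06 and 1.33 ± 0.31), and the list level ran from 0.35 to 2.18 in DIO-ICR, from -0.12 to 3.62 in DIO-CCR and from -2.16 to 0.26 in DIO-HFD. With that list level as a covariate no member passed: Ccr2 was 0.87 ± 0.26 (adjusted p = 0.215), Fcgr4 1.68 ± 0.35 (0.0519), Aif1 0.83 ± 0.24 (0.187) and Fcrls -2.20 ± 0.51 (0.0893).

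Between the weight loss groups no member passed. DIO-CCR minus DIO-VSG had 9 members at an unadjusted p under 0.05 against 9.35% of all genes, and 0.0513% of genes were called. The lowest adjusted p was 0.219, for P2ry12 (0.74 ± 0.21). DIO-ICR minus DIO-VSG had 11 such members against 8.37%, with 0.0308% of genes called, and Retnla came first (3.75 ± 1.02, adjusted p = 0.31). DIO-CCR minus DIO-ICR had 1, P2ry12 (0.49 ± 0.21, adjusted p = 0.999), against 4.76%, and 0% of genes were called. Ly6i was lower in mean than in DIO-VSG in both restricted groups, by 0.61 ± 0.22 in DIO-CCR (adjusted p = 0.37) and 0.63 ± 0.22 in DIO-ICR (adjusted p = 0.399). The median SE of a member's difference was 0.27, against 0.18 for all genes, and these tests do not show that the groups were alike.

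The weight loss groups were also set against never-obese mice. Relative to CON-LFD, 2 of 41 members were higher in DIO-VSG (0.0205% of all genes were called higher and 0.0256% in either direction), 6 were higher in DIO-CCR (0.215% and 0.415%) and 12 were higher in DIO-ICR (0.836% and 1.57%). None was lower. The groups did not overlap for 4, 1 and 6 members, against 0.574%, 0.938% and 1.73% of all genes. Ccr2, Plac8, Ly6i and Napsa, which were higher in DIO-VSG than in DIO-HFD, were not among the members called here. Nos2 had the largest downward difference from CON-LFD among members, at -1.36 in DIO-VSG, -1.72 in DIO-CCR and -2.32 in DIO-ICR, without passing. In DIO-ICR it passed as lower with only both groups in the fit (adjusted p = 0.0374). It also passed there without the tumors holding lymph node genes (adjusted p = 0.0402) or muscle genes (adjusted p = 0.0486).

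Dpep2, a dipeptidase of monocytes and macrophages, ran from 9.55 to 10.53 (median 9.75) in CON-LFD, from 10.56 to 11.84 (median 11.09) in DIO-CCR and from 10.99 to 11.55 (median 11.15) in DIO-ICR, with no overlap of CON-LFD with either. It was 2.37-fold higher in DIO-CCR (1.25 ± 0.22, adjusted p = 0.0183) and 2.56-fold higher in DIO-ICR (1.36 ± 0.22, adjusted p = 0.00246). DIO-HFD (10.29 to 11.06, median 10.66) and DIO-VSG (10.01 to 11.73, median 10.86) were nearer to these groups than to CON-LFD by their medians, and the difference of DIO-HFD from CON-LFD did not pass (adjusted p = 0.0662). The call in DIO-ICR held in all 10 other settings tried and with any 1 of the 12 tumors left out (highest adjusted p 0.0115).

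Aoah, which removes acyl chains from lipopolysaccharide, ran from 10.79 to 12.50 (median 11.52) in CON-LFD, from 11.86 to 13.22 (median 12.87) in DIO-CCR and from 12.48 to 13.16 (median 12.89) in DIO-ICR. The differences were 1.11 ± 0.22 (adjusted p = 0.0183) and 1.27 ± 0.22 (adjusted p = 0.00367), and CON-LFD 6 was the tumor that overlapped DIO-ICR. It ran from 11.80 to 12.49 (median 11.93) in DIO-HFD and from 12.12 to 12.52 (median 12.49) in DIO-VSG. Tlr7, the endosomal receptor for single-stranded RNA, ran from 10.72 to 12.13 (median 11.55) in CON-LFD, from 11.99 to 12.85 (median 12.69) in DIO-CCR and from 11.92 to 12.66 (median 12.41) in DIO-ICR. Its differences were 1.10 ± 0.20 (adjusted p = 0.0183) and 0.88 ± 0.20 (adjusted p = 0.0252), with DIO-HFD at 11.73 to 12.41 (median 11.97) and DIO-VSG at 11.92 to 13.07 (median 12.28).

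Clec5a was higher than in CON-LFD in DIO-VSG (1.00 ± 0.19, adjusted p = 0.0451), in DIO-CCR (0.89 ± 0.19, adjusted p = 0.025) and in DIO-ICR (1.02 ± 0.19, adjusted p = 0.0075). Adgre4 passed in DIO-VSG: it ran from 5.68 to 7.29 (median 6.84) in CON-LFD and from 7.58 to 9.62 (median 8.99) in DIO-VSG, a 4.21-fold difference (2.08 ± 0.37, adjusted p = 0.0314). The level was 6.53 to 8.81 (median 7.50) in DIO-HFD, 7.29 to 9.01 (median 8.06) in DIO-CCR and 7.47 to 8.77 (median 8.06) in DIO-ICR. In DIO-CCR and DIO-ICR the differences were 1.42 ± 0.37 (adjusted p = 0.079) and 1.32 ± 0.37 (adjusted p = 0.0631). In DIO-VSG, leaving out 1 tumor kept the call for Adgre4 in 6 of 12 cases and that for Clec5a in 2 (adjusted p up to 0.126 and 0.173). Both were lost when DIO-VSG 1 and 5 and DIO-HFD 5 were left out (Adgre4 1.73 ± 0.38, Clec5a 0.98 ± 0.22, adjusted p = 0.286 for each).

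Csf1r, the receptor for the growth factors CSF1 and IL34 on which macrophages depend, ran from 10.35 to 11.21 (median 11.05) in CON-LFD, from 10.89 to 12.28 (median 12.16) in DIO-CCR and from 11.77 to 12.70 (median 11.98) in DIO-ICR. It was higher by 1.04 ± 0.23 in DIO-CCR (adjusted p = 0.0386) and by 1.14 ± 0.23 in DIO-ICR (adjusted p = 0.0139), and DIO-CCR 2 was the only tumor of these 2 groups within the CON-LFD range. DIO-HFD ran from 11.19 to 12.13 (median 11.50) and DIO-VSG from 11.52 to 12.66 (median 11.93). P2ry12, an ADP receptor known from microglia, passed in DIO-CCR (1.11 ± 0.21, adjusted p = 0.0183): it ran from 7.56 to 8.41 (median 7.82) in CON-LFD and from 8.14 to 9.44 (median 9.15) in DIO-CCR. It was at 8.0 to 9.20 (median 8.57) in DIO-HFD, 7.53 to 8.65 (median 8.27) in DIO-VSG and 8.17 to 8.66 (median 8.60) in DIO-ICR.

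The calls for Itgam, Cybb, Adgre1 and the C1q chains were made in DIO-ICR. Itgam (CD11b, the integrin chain of monocytes, macrophages and neutrophils) ran from 12.85 to 13.79 (median 13.30) in CON-LFD and from 13.75 to 14.41 (median 14.23) in DIO-ICR (0.84 ± 0.18, adjusted p = 0.0179). Cybb, the catalytic chain of the phagocyte oxidase, ran from 11.96 to 13.69 (median 13.07) against 13.61 to 14.47 (median 14.14), a 2.15-fold difference (1.11 ± 0.22, adjusted p = 0.0139). Adgre1 ran from 10.44 to 12.45 (median 11.50) against 11.80 to 13.25 (median 12.37), with a difference of 0.94 ± 0.24 (adjusted p = 0.0433). For Itgam the median of DIO-HFD was close to that of CON-LFD and those of the other groups lay nearer to DIO-ICR: it ran from 13.01 to 14.06 (median 13.22) in DIO-HFD, 13.73 to 14.07 (median 13.91) in DIO-VSG and 13.33 to 14.24 (median 13.98) in DIO-CCR. For Cybb DIO-HFD reached 13.88 at most (median 13.37), DIO-VSG ran from 13.69 to 14.57 (median 14.06) and DIO-CCR from 13.22 to 14.43 (median 13.94). For Adgre1 the ranges of these 3 groups were 11.92 to 12.60 (median 12.12), 12.02 to 12.37 (median 12.19) and 11.43 to 12.52 (median 12.32).

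The chains of C1q moved by about the same amount. C1qa ran from 11.92 to 13.29 (median 12.47) in CON-LFD and from 13.04 to 14.19 (median 13.46) in DIO-ICR (1.02 ± 0.24, 2.03-fold, adjusted p = 0.0265). C1qb ran from 11.85 to 13.32 (median 12.86) against 13.30 to 14.64 (median 13.57), with a difference of 1.04 ± 0.26 (adjusted p = 0.0363). C1qc ran from 9.51 to 11.26 (median 10.50) against 11.21 to 12.13 (median 11.46), with a difference of 1.08 ± 0.27 (adjusted p = 0.0392). CON-LFD 6 was the highest tumor of its group for each chain and the overlap with DIO-ICR came from it. DIO-HFD and DIO-VSG medians lay between, at 13.05 and 13.08 for C1qa, 13.19 and 13.33 for C1qb and 10.96 and 10.91 for C1qc, and those of DIO-CCR at 13.57, 13.66 and 11.53. Cfb, factor B of the alternative complement pathway, differed over all groups (F-test, adjusted p = 0.0213) but in no single comparison: it ran from 9.03 to 9.77 (median 9.48) in CON-LFD, 8.78 to 10.53 (median 9.64) in DIO-HFD, up to 11.28 (median 10.33) in DIO-VSG, 9.69 to 10.78 (median 10.59) in DIO-CCR and 9.90 to 10.64 (median 10.23) in DIO-ICR. Its DIO-VSG and DIO-ICR tumors lay above all CON-LFD tumors. In some of the other settings tried, Cfb passed as higher than in CON-LFD. This was so in DIO-CCR (limma, adjusted p from 0.0172 to 0.0439) and in DIO-ICR (adjusted p from 0.0242 to 0.043).

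Retnla (RELM-alpha), a secreted alternative activation protein, had the widest difference of all members. It ran from 2.87 to 5.69 (median 4.21) in CON-LFD and from 6.36 to 9.82 (median 8.29) in DIO-ICR, with no overlap and a 15.9-fold difference of means (3.99 ± 1.02, adjusted p = 0.0433). The other groups were spread: 2.55 to 6.50 (median 5.39) in DIO-HFD, 2.81 to 8.61 (median 3.66) in DIO-VSG, where DIO-VSG 1 was highest, and 2.98 to 10.51 (median 6.78) in DIO-CCR. Levels this far under the array medians are close to the floor of the array, so a fold change against them is uncertain. Its difference from DIO-HFD did not pass in DIO-ICR (3.45 ± 1.02, adjusted p = 0.147). The adipocyte list level ran from -2.42 to 0.12 in CON-LFD, and with it as a covariate the difference of Retnla from CON-LFD was 1.37 ± 0.94 (adjusted p = 0.606).

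With that covariate only Dpep2 stayed past the threshold in DIO-CCR (1.49 ± 0.26, adjusted p = 0.0275) and in DIO-ICR (1.60 ± 0.26, adjusted p = 0.0127), and the part of adipose tissue in the other calls was not tested. Neutrophil markers moved against these genes: 5 of 15 (S100a9, Retnlg, Cxcr2, Mmp8 and Lcn2) were lower in DIO-ICR than in CON-LFD and S100a9 was lower in DIO-CCR. CON-LFD 3 was the lowest tumor of its group for 20 of 41 members and had the highest neutrophil list level of all tumors, 2.17. Without it no member passed in DIO-CCR and 4 passed in DIO-ICR (Clec5a, Cybb, Dpep2 and Aoah, which passed with any 1 of the 12 tumors left out). The calls for C1qa, C1qb and C1qc were lost without any 1 of CON-LFD 3, 4 or 5 or DIO-ICR 2, 5 or 6 (adjusted p up to 0.13), and those for Adgre1 and Retnla held with 2 of the 12 tumors left out in turn (adjusted p up to 0.133 and 0.097). Without DIO-CCR 2, the lowest of its group for 22 members, 11 passed in DIO-CCR.

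**Figure D4:**
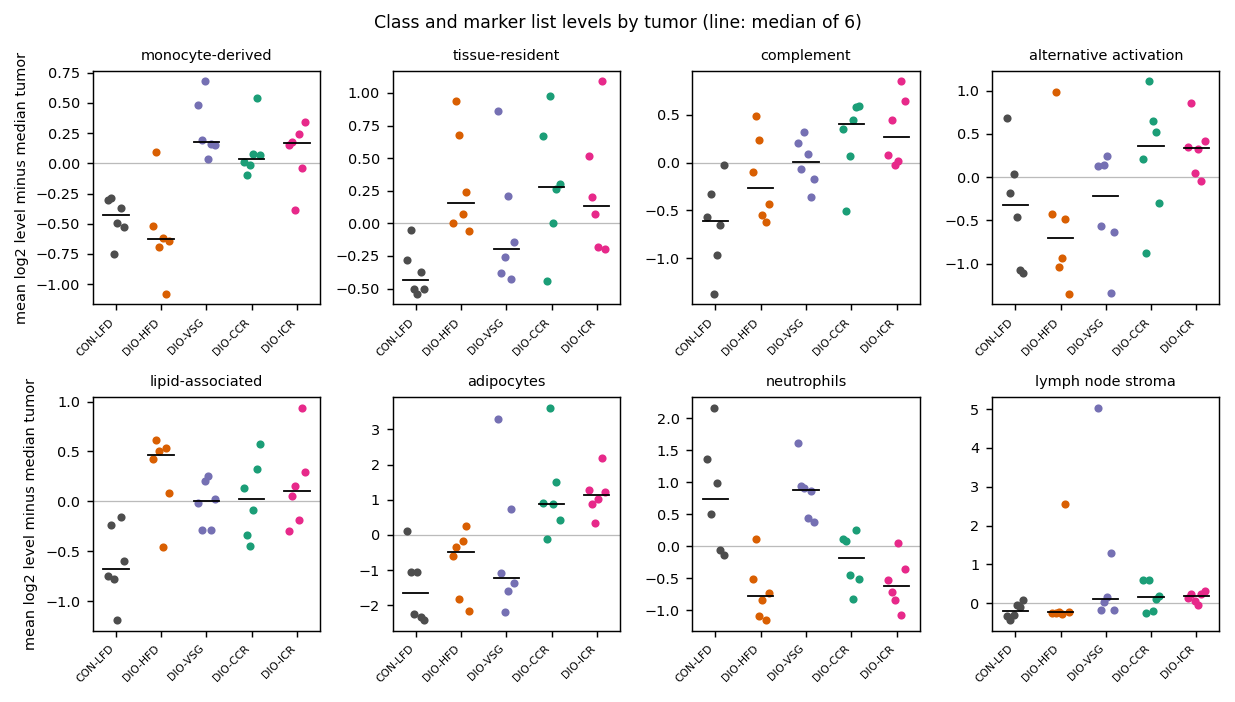
Mean log2 level of each member class and of 3 marker lists in each tumor, minus the median tumor (points, 6 per group; the line is the group median). The monocyte-derived medians are -0.63 in DIO-HFD and 0.18 in DIO-VSG, the adipocyte medians are 0.89 in DIO-CCR and 1.13 in DIO-ICR, and the lymph node list stands at 5.04 in DIO-VSG 1.

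By class, the monocyte-derived level was lowest in DIO-HFD, where it ran from -1.08 to 0.09 (median -0.63), and low in CON-LFD, from -0.75 to -0.29 (median -0.43). It ran from 0.04 to 0.68 (median 0.18) in DIO-VSG, from -0.10 to 0.54 (median 0.04) in DIO-CCR and from -0.39 to 0.34 (median 0.17) in DIO-ICR, so that DIO-HFD 2 was the only DIO-HFD tumor within the DIO-VSG range. The tissue-resident level instead was lowest in CON-LFD (-0.54 to -0.05, median -0.43), followed by DIO-VSG (-0.43 to 0.86, median -0.20), and the lipid-associated level was lowest in CON-LFD (-1.19 to -0.16, median -0.67) and highest in DIO-HFD (-0.46 to 0.61, median 0.46). The complement level had its lowest median in CON-LFD, -0.61, and its highest in DIO-CCR, 0.40. The alternative activation level was lowest in DIO-HFD (median -0.71) and its ranges overlapped in every pair of groups. These class levels are described without a test, since the classes were chosen with results of these data known.

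Of the alternative activation genes Retnla alone passed. Chil3 (Ym1), a chitinase-like protein also made by monocytes and neutrophils, did not overlap between DIO-HFD (7.91 to 9.02, median 8.83) and DIO-VSG (9.71 to 11.54, median 10.75) or DIO-CCR (9.26 to 10.92, median 10.28), with differences of 2.07 ± 0.49 (adjusted p = 0.0787, or 0.023 with only both groups in the fit) and 1.54 ± 0.49 (adjusted p = 0.166). It ran from 8.29 to 10.93 (median 9.73) in CON-LFD and from 7.44 to 11.09 (median 10.50) in DIO-ICR. Arg1, arginase 1, was the most variable: it ran from 5.94 to 13.11 in DIO-HFD and from 5.48 to 11.80 in DIO-VSG, and no comparison with DIO-HFD was under an adjusted p of 0.823. Mrc1, the mannose receptor CD206, had lower means in CON-LFD and DIO-VSG than in DIO-HFD, by 0.63 ± 0.23 (adjusted p = 0.202) and 0.67 ± 0.23 (adjusted p = 0.275). Msr1, the scavenger receptor CD204, differed from DIO-HFD by 0.33 or less.

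The remaining members did not pass in any comparison. Fcgr1 (CD64, the high-affinity IgG receptor) was higher in mean than in DIO-HFD by 0.65 ± 0.23 to 0.76 ± 0.23 in the weight loss groups (adjusted p from 0.158 to 0.295). Lyve1, the hyaluronan receptor of resident macrophages and of lymphatic vessels, ranged from 6.65 to 13.81 over all tumors, and Cd163, the haemoglobin scavenger receptor, from 6.16 to 10.34. Their differences from DIO-HFD were -1.59 ± 0.79 and -1.23 ± 0.54 in DIO-VSG (adjusted p = 0.496 and 0.434). Lyve1 is also a gene of lymphatic endothelium, whose list level ran from -0.49 to 1.98 over the tumors. The tumor at 1.98, DIO-VSG 1, had the highest Lyve1 of its group, 11.44, and an adipocyte list level of 3.30. The tumor with the highest Lyve1, DIO-CCR 3, had a lymphatic level of -0.01 and the highest adipocyte level of all tumors, 3.62. The part of either tissue was not tested. Cx3cr1, Vsig4 and Marco had means of 4.81, 5.50 and 5.97, below the array medians. The receptors for dying cells, Mertk and Axl, had differences from DIO-HFD of 0.36 or less in size.

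Within groups, several pairs of members were correlated from tumor to tumor. Over 30 tumors, after each group's mean was removed, C1qa correlated with C1qb at r = 0.91 (rho = 0.91) and with C1qc at r = 0.92 (rho = 0.93), and C1qb with C1qc at r = 0.92 (rho = 0.91); each permutation p was 1e-05, the smallest that 100000 permutations within groups can give, and adjusted over 12 pairs it was 4e-05 for r and 3e-05 for rho. Ccr2 followed Plac8 (r = 0.76, rho = 0.72, permutation p = 3e-05 and 4e-05, adjusted 9e-05 and 9.6e-05) and Ly6c2 (r = 0.67, rho = 0.60, permutation p = 0.00053 and 0.00198, adjusted 0.000909 and 0.00297). Cd163 followed Mrc1 (r = 0.71, rho = 0.72, permutation p = 7e-05 and 6e-05, adjusted 0.00014 and 0.00012). Arg1 followed Nos2, the enzyme that competes with it for arginine (r = 0.66, rho = 0.55, permutation p = 0.00182 and 0.00637, adjusted 0.00273 and 0.00849). Ly6c2 followed Ly6i (r = 0.64, rho = 0.72, permutation p = 6e-05 and 1e-05, adjusted 0.00014 and 3e-05) and Folr2 followed Lyve1 (r = 0.56, rho = 0.61, permutation p = 0.00579 and 0.00113, adjusted 0.00772 and 0.00194). Without the 2 tumors farthest from the median of the first gene, r was between 0.58 and 0.91 for these 9 pairs.

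The other 3 pairs did not pass. Trem2 and Gpnmb, both of lipid-laden macrophages, showed little relation (r = -0.08, rho = -0.05, permutation p = 0.728 and 0.793, adjusted the same). Chil3 and Ly6c2 gave r = 0.29 (rho = 0.32, permutation p = 0.101 and 0.0798, adjusted 0.121 and 0.0958). Adgre1 and Fcrls gave r = 0.35 (rho = 0.33, permutation p = 0.127 and 0.109, adjusted 0.139 and 0.119), or 0.52 without the 2 farthest tumors. Both genes of a pair were read from the same arrays.

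Among genes that act on these cells, the transcription factors gave the most calls. Of 18 measured, Cebpd (2.11 ± 0.44, adjusted p = 0.0149), a factor of acute inflammation, and Spic (2.67 ± 0.53, adjusted p = 0.00969), a factor of red pulp macrophages, were higher in CON-LFD than in DIO-HFD. In DIO-ICR, Spi1, which encodes PU.1, was higher than in DIO-HFD (14.54 to 15.35 in mean, 0.81 ± 0.18, adjusted p = 0.0379), as was Pparg (1.33 ± 0.31, adjusted p = 0.0446), which adipocytes also express. Relative to CON-LFD, DIO-ICR had higher Spi1 (0.80 ± 0.18, adjusted p = 0.0252) and Pparg (1.22 ± 0.31, adjusted p = 0.0433) and lower Cebpd (-1.97 ± 0.44, adjusted p = 0.0215) and Spic (-2.21 ± 0.53, adjusted p = 0.0293). None of the 18 passed in DIO-VSG or DIO-CCR in the comparisons with DIO-HFD or CON-LFD.

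Of 12 ligands and growth factors that call or feed monocytes, Ccl5 was lower in CON-LFD than in DIO-HFD (-0.89 ± 0.22, adjusted p = 0.043) and Ccl12, a ligand of CCR2 in the mouse, was higher in DIO-CCR than in CON-LFD (1.01 ± 0.20, adjusted p = 0.0188), with no overlap of tumors. No ligand passed in DIO-VSG or DIO-ICR, and the median difference of the 12 from DIO-HFD was -0.11 in DIO-VSG and 0.02 in DIO-ICR. Of 16 polarising cytokines and receptors, Il1b was higher than in DIO-HFD in CON-LFD (1.87 ± 0.39, adjusted p = 0.0141) and in DIO-VSG (1.79 ± 0.39, adjusted p = 0.0483). Il10ra, a chain of the interleukin 10 receptor, was higher in DIO-ICR than in CON-LFD (1.09 ± 0.24, adjusted p = 0.0204). Of 11 other complement genes, C3ar1, the receptor for the C3a fragment, was higher than in CON-LFD in DIO-CCR (0.80 ± 0.18, adjusted p = 0.0425) and in DIO-ICR (0.94 ± 0.18, adjusted p = 0.0104), and none passed against DIO-HFD.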

How the data were processed

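Total RNA of 30 tumors was hybridised to Mouse Clariom S arrays, 1 array per tumor and 1 tumor per mouse. The deposited log2 values were made by the authors with SST-RMA (signal space transformation and robust multichip averaging) in the Transcriptome Analysis Console, and were used as deposited; no genome build was given for the annotation by the sources used. This normalization sets the arrays on 1 scale, so that levels are relative to each array, and the number of arrays limits the precision. Of 22206 probe sets, 19572 had 1 gene symbol in the platform annotation and 2634 had none; the brightest probe set was kept for each of 55 symbols with several, which left 19505 genes. No member had several probe sets.

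Groups came from the labels. A model with 1 mean per group was fitted to all 30 arrays with limma 3.58.1 in R 4.3.3 (25 residual degrees of freedom), with 10 pairwise comparisons and an F-test; p-values were adjusted by the Benjamini-Hochberg method over all genes, and an adjusted p under 0.05 passed. The fit was tested on simulated data. A list level is the mean log2 level of its genes in a tumor minus that of the median tumor. Correlations used deviations from group means, with 100000 permutations within groups (Python 3.11.15, scipy 1.17.1), both sides. Per-group values are given for the members that passed in any test and for the members of each class with the smallest F-test p, and the others by ranges; from the other lists the genes that passed are named. Members, classes and lists were chosen with earlier results of these data known, and the lipid-associated class was added to the 4 classes first named. Alternatives were a fit to only the groups compared, a trended robust variance, array weights, quantile normalization, arrays centred on their median, a filter on the 30% of genes with the lowest mean, a fit to all probe sets and fits without each tumor. Fits without tumors holding lymph node or muscle genes (list level more than 1 above the median tumor) and with the adipocyte list level as a covariate were added after seeing the data. Sequences came from RefSeq tables of build GRCm38.p6.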

Additional observations from a re-analysis of the deposited data

Results flagged for a closer look

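In 14 of the 205 sets of 6 tumors (41 members in 5 groups), the highest or lowest tumor lay further from its neighbour than Dixon's ratio for 6 samples allows (0.625); chance gives about 1 in 20, here 10.25. DIO-HFD 2 stood high for Nos2 (10.71), Arg1 (13.11) and Lyve1 (12.29). DIO-CCR 2 stood low for Adgre1 (11.43) and Csf1r (10.89). DIO-VSG 1 stood high for Marco (9.94) and low for Axl (14.47). DIO-VSG 3 stood apart for Fcgr1 (14.06) and Mertk (8.86), and DIO-VSG 4 was low for P2ry12 (7.53). CON-LFD 6 was low for Plac8 (10.34) and Folr2 (8.85), and CON-LFD 4 stood apart for Vsig4 (4.36). DIO-ICR 2 stood high for Arg1 (8.81).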

How the results depend on the processing

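No direction of a called member was reversed under any alternative. The count of members passing relative to DIO-HFD moved from 3 to 1 in CON-LFD with quantile normalization. It moved to 5 with array weights or without the dimmest genes. Fcrls kept its call in all 10 other settings, Folr2 in 7 and Clec5a in 5. Folr2 was lost with quantile normalization, without the muscle tumors and with the adipocyte covariate. Clec5a was lost with quantile normalization, median centring, all probe sets, the covariate and without the lymph node tumors. With the covariate Dpep2 (-0.87, adjusted p = 0.0424) and Gpnmb (-0.98, adjusted p = 0.0472) were gained. Dpep2 was also gained without the dimmest genes, with the trended robust variance, with array weights and without the muscle tumors (limma, adjusted p from 0.00728 to 0.0461). Nos2 was gained, as higher in CON-LFD, without the dimmest genes, with array weights and without the muscle tumors (adjusted p from 0.0258 to 0.0379). In DIO-VSG the count moved from 4 to 2 with only both groups in the fit. There Ly6i was kept, Ccr2, Plac8 and Napsa were lost and Chil3 was gained (2.07, adjusted p = 0.023). The count became 0 without the tumors holding lymph node or muscle genes. Ccr2 was also lost with median centring, all probe sets and array weights, and kept its call in 4 of 10 other settings. In DIO-CCR the count moved from 0 to 1 (Ccr2) with array weights or without the dimmest genes. In DIO-ICR it moved from 4 to 0 with the adipocyte covariate. Itgam (limma, adjusted p from 0.0337 to 0.0451) and Aoah (adjusted p from 0.0267 to 0.0479) were gained against DIO-HFD in some settings. Relative to CON-LFD, the 2 calls in DIO-VSG became 1 with quantile normalization, median centring or all probe sets, and 0 without the lymph node tumors, with the adipocyte covariate or with only both groups. The 6 in DIO-CCR became 1 with the covariate and 0 with only both groups, and the 12 in DIO-ICR became 1 with the covariate. Gains against CON-LFD included Adgre4 in DIO-CCR without the lymph node tumors (limma, adjusted p = 0.0473). Adgre4 was also gained in DIO-ICR in some settings (adjusted p from 0.0309 to 0.0466), and Cybb in DIO-CCR without the dimmest genes (adjusted p = 0.0463). Between DIO-VSG and each restricted group the count became 1 with the covariate (Napsa, adjusted p = 0.0389 in DIO-CCR and 0.0454 in DIO-ICR). The F-test count of 16 became 9 without the muscle tumors and 4 with the covariate. The causes were not tested; the fits without tumors and with only both groups use fewer arrays.

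Leaving out each tumor in turn gave counts relative to DIO-HFD of 1 to 5 in CON-LFD, 0 to 5 in DIO-VSG, 0 to 1 in DIO-CCR and 0 to 6 in DIO-ICR. Relative to CON-LFD they were 0 to 3 in DIO-VSG, 0 to 11 in DIO-CCR and 4 to 15 in DIO-ICR, and the F-test gave 10 to 20. Between the weight loss groups they stayed at 0. No paired analysis was possible because the replicate numbers follow the order of the samples and each tumor came from its own mouse.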

Other observations

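T cell and dendritic cell markers were highest in DIO-ICR by their medians. The T cell list level ran from 0.16 to 1.20 (median 0.61) in DIO-ICR and from -1.17 to 0.82 (median -0.72) in DIO-HFD, and 8 of 9 genes were higher in sign, without passing. Cd8a, a chain of the CD8 co-receptor of cytotoxic T cells, differed by 2.24 ± 0.61 (adjusted p = 0.0952). The dendritic cell level ran from 0.00 to 0.75 (median 0.41) in DIO-ICR and from -0.42 to 0.13 (median -0.04) in DIO-HFD, with 10 of 12 genes higher in sign. Of all genes 44.2% were higher in sign in this comparison. Batf3, a transcription factor of cross-presenting dendritic cells, differed by 1.22 ± 0.30 (adjusted p = 0.0541), and Clec10a, a lectin of dendritic cells and macrophages, was higher in DIO-ICR than in CON-LFD (1.35 ± 0.31, adjusted p = 0.0252).

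No gene of the B cell (9), lymph node stroma (9), skeletal muscle (10) or lymphatic endothelium (6) lists passed in any comparison with DIO-HFD or CON-LFD. Of 8 epithelial genes Krt8 alone did, lower in CON-LFD than in DIO-HFD (-2.37 ± 0.56, adjusted p = 0.0296). The other 7 had higher means in CON-LFD, without passing. S100a9 and Retnlg, both neutrophil genes, were lower in DIO-ICR than in DIO-VSG (-3.95 ± 0.67 and -3.90 ± 0.74, adjusted p = 0.0298 and 0.0445).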
